A study of Mus musculus with 18 samples.

Results

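The coreceptors CD4 and CD8 and the transcription factors that set them in T cells were followed through mouse T cells with and without G9a, the enzyme encoded by Ehmt2 that methylates lysine 9 of histone H3. The set held 9 genes chosen by symbol, of 23234 symbols in the RNA table: Cd4, Cd8a and Cd8b1 (the coreceptor chains), Zbtb7b, Runx1, Runx3, Cbfb, Patz1 and Gata3. Each of the 9 was found and passed the filter of a mean of at least 0.5 FPKM (fragment counts scaled to transcript length and library depth) over the 10 RNA libraries, which left 11162 genes.

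RNA came from T cells of C57BL/6 mice, taken from spleen and lymph nodes after expanding in a lymphopenic host for 4 weeks. G9a-deficient cells carrying both coreceptors are called KO DP (n = 4), G9a-deficient cells with CD8 and no CD4 KO SP (n = 2), and their wild-type counterparts WT SP (n = 4). No wild-type CD4+CD8+ group is analysed here, so genotype and CD4 phenotype cannot be told apart in KO DP against WT SP, and KO SP was the group that shared the genotype of KO DP and the phenotype of WT SP. H3K9me3, a mark of silent chromatin, was mapped by native ChIP-seq in spleen CD8 T cells cultured with antibodies to CD3 and CD28, in 2 wild-type (WT) and 2 G9a-deficient (KO) libraries. Those cells are not the ones used for RNA. The labels do not give the deleted part of Ehmt2, what drove the deletion, the age of the animals or whether the samples of a group are from different animals. The p-values therefore describe the variation among these samples, part of which may be technical.

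CD4 and CD8 bind class II and class I MHC molecules, and the tails of CD4 and of the CD8 alpha chain bring the kinase Lck to the T cell receptor. Developing T cells pass through a stage with both coreceptors and then keep 1. Zbtb7b encodes ThPOK, which commits cells to the CD4 helper lineage and restrains Runx3. Runx3, paired with its partner Cbfb, commits cells to the CD8 lineage and silences Cd4 and Zbtb7b through silencer elements, while Gata3 acts upstream of Zbtb7b.

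RefSeq promoter windows (build GRCm38.p6), the 250 bases before an annotated start, were given for 7 of the 9 genes, with 11 windows in all. Cd4 and Cd8b1 had no window. The core of the Runx binding motif (TGTGGT, or ACCACA on the other strand) occurred in 2 of the 11, against 14.0% of 32851 windows of the same length. For so few windows this count is close to that share, and nothing about these genes is read from it. Both windows, of the opposed regulators Runx3 and Zbtb7b, are printed as a description, with the match in capitals. Binding by Runx was not tested. The Runx3 window lies on the plus strand at chr4:135120395-135120644, before the first of its 2 annotated starts, and the Zbtb7b window on the minus strand at chr3:89387672-89387921, before the second of its 2.
Runx3: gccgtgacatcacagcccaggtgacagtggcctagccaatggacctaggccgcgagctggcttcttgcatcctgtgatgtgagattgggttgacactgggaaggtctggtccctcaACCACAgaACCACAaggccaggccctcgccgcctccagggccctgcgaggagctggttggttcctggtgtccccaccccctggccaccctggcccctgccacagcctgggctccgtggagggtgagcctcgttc
Zbtb7b: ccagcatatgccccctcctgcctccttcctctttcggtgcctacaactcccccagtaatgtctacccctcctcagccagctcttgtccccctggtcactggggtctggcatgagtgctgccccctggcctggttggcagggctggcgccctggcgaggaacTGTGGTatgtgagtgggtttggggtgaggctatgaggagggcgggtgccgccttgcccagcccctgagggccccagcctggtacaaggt
The Runx3 window held 2 matches, which begin 134 and 126 bases before the start and do not overlap. Several matches occurred in 1.27% of all windows. The Zbtb7b window held 1 match, 89 bases before its start. The core of the GATA motif (AGATAA, or TTATCT on the other strand) was in 0 of the 11 windows and in 9.99% of all. FPKM here is a single value per gene and does not separate transcripts from the different starts.

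Libraries differed in scale. The FPKM of a library summed to 441903 to 504013 in 8 libraries, to 292872 in KO DP replicate 3 and to 183632 in KO DP replicate 4, although their relative depth, estimated from the spacing of low values, was 1.19 and 1.14 times that of KO SP replicate 1, within the range of 0.7999 to 1.56 over the 10 libraries. Median-ratio size factors were 0.728 and 0.455 in those 2 libraries and 1.08 to 1.26 in the others, so values are given as deposited and after division by these factors ("scaled"). In the deposited values the median of all genes lay at -0.38 between KO DP and WT SP (log2), and after scaling it lay at -0.01. Numbers in the sample titles run from 34 to 37 (KO DP and WT SP replicates 1 and 2) or from 738 to 741 (KO DP and WT SP replicates 3 and 4, and KO SP). Ehmt2 itself stayed at 7.28 to 23.6 FPKM in KO DP, 12.6 and 13.6 in KO SP and 18.1 to 42.6 in WT SP, summed over its whole gene model.

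Cd4 followed the phenotype in the labels. The 4 KO DP libraries, in replicate order as for each gene, had 135, 178, 78.8 and 49.4 FPKM as deposited, the KO SP libraries 0.192 and 0.222, and the WT SP libraries 0.495, 0.466, 0.233 and 0.144. KO DP lay far above both other groups in each library, and KO SP lay inside the WT SP range. CD4 was part of how KO DP was defined, so this contrast is a description and was not tested. Scaling drew the KO DP libraries together, to 116, 151, 108 and 109. Per length, Cd4 RNA in KO DP stood at 0.515, 0.934, 0.512 and 0.706 of Cd8a RNA in the same library, against at most 0.00187 in the SP libraries. KO SP and WT SP share the CD4-negative phenotype, so low Cd4 in both follows from how they were defined. Cd4 did not pass between them (log2 difference -0.14 ± 0.44 SE on log2(FPKM + 1), as throughout, adjusted p = 0.98, limma), and no conclusion is drawn from this. In bulk RNA fewer cells with a transcript and less RNA per cell cannot be told apart.

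Both CD8 chains were abundant in every library, and the KO DP libraries held less of the beta chain. Cd8b1, which encodes the beta chain, was at 904, 691, 516 and 248 FPKM in KO DP and 1282, 1180.0, 1511 and 1402 in WT SP, with 1477 and 1344 in KO SP. Each KO DP value was below each SP value, and KO DP replicate 4 was lowest. As deposited the log2 difference of -1.33 ± 0.39 (SE) from WT SP missed the threshold (adjusted p = 0.0561, limma). It passed with a block for the replicate number (adjusted p = 0.0303, limma). The labels state no such pairing, and with this block 1435 of all tested genes were called, against 881 without it. Scaled, with no block, the Cd8b1 difference was -0.89 ± 0.15 (adjusted p = 0.00432, limma). The scaled values were 774, 588, 708 and 545 in KO DP and 1048 to 1309 in WT SP.

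Cd8a, the alpha chain, was less separated. Its FPKM was 262, 190.5, 154 and 70.0 in KO DP and 267, 249, 339 and 310.1 in WT SP, with 340.1 and 307 in KO SP. KO DP replicate 1 fell inside the WT SP range. The difference from WT SP was -0.92 ± 0.37 as deposited (adjusted p = 0.144, limma) and -0.48 ± 0.15 scaled (adjusted p = 0.0580, limma), so that Cd8a passed in neither.

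The CD8 chains therefore stood in different proportion in the double-positive cells, a measure that no scaling between libraries can move. The FPKM ratio of Cd8b1 to Cd8a was 3.45, 3.63, 3.35 and 3.54 in KO DP and 4.81, 4.75, 4.46 and 4.52 in WT SP, with 4.34 and 4.38 in KO SP. The 4 KO DP ratios lay below each of the 6 SP ratios, with group means of 3.49 ± 0.121 (SD, n = 4), 4.36 ± 0.0279 (n = 2) and 4.64 ± 0.169 (n = 4). Of the other tested genes set against Cd8a in this way, 2.26% had ratios in KO DP below the whole WT SP range. Replicates 3 and 4 of KO DP, with the low totals, gave ratios within those of replicates 1 and 2 or just below them. A ratio shows unequal change of the chains, not that either stayed the same.

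**Figure D1:**
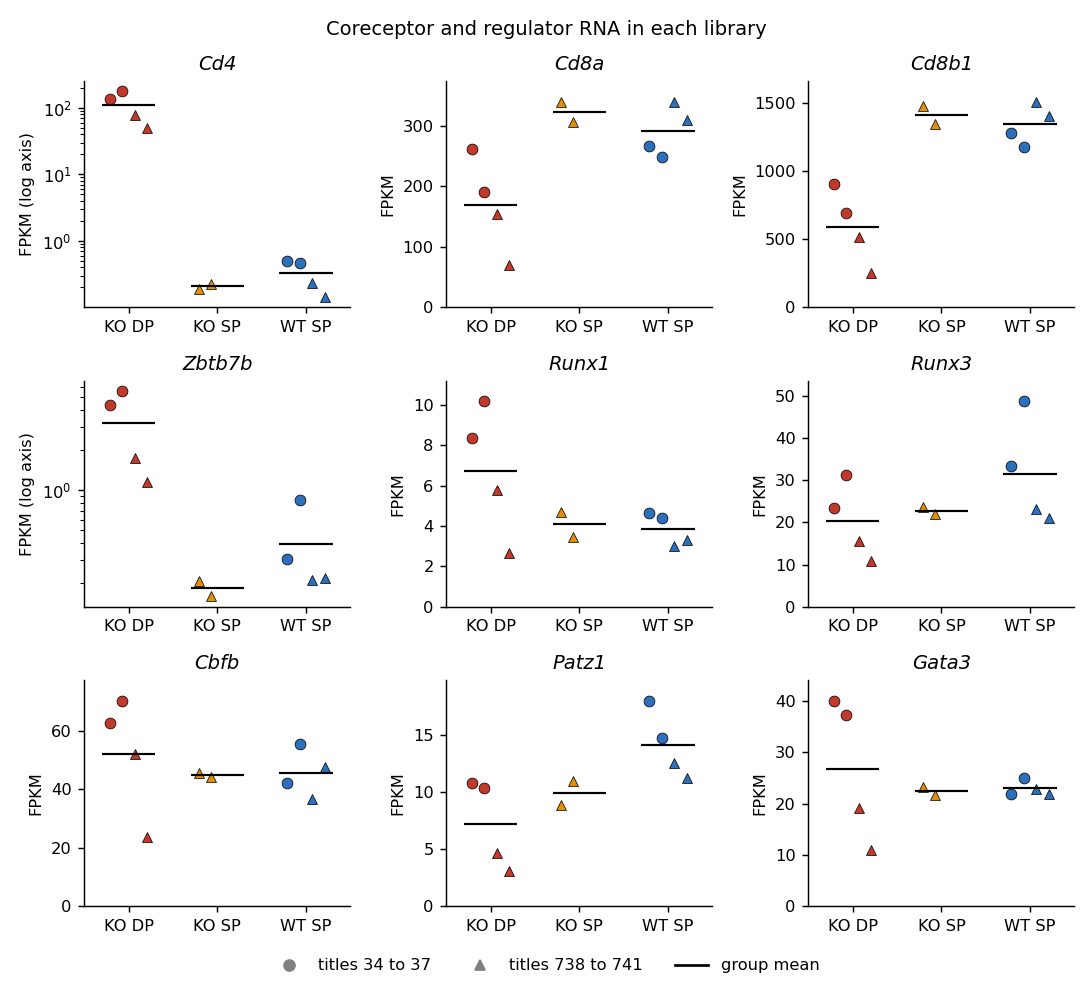
FPKM as deposited of the 9 genes in each of the 10 libraries (points; circles, titles 34 to 37; triangles, titles 738 to 741) with group means (lines); Cd4 and Zbtb7b have log axes. Cd4 and Zbtb7b are high in the 4 KO DP libraries, Cd8b1 is below the SP libraries there, and KO DP replicate 4 is the lowest KO DP library for each gene.

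Zbtb7b, the helper lineage factor, was higher in KO DP. Its FPKM was 4.35, 5.58, 1.76 and 1.16 in KO DP and 0.304, 0.853, 0.214 and 0.219 in WT SP, with 0.207 and 0.159 in KO SP. KO DP and WT SP did not overlap, although the lowest KO DP library (1.16) stood close to WT SP replicate 2 (0.853), the highest of its group. The log2 rise over WT SP was 1.47 ± 0.34 (SE; adjusted p = 0.0253, limma) as deposited and 1.67 ± 0.22 scaled (adjusted p = 0.00118, limma). As deposited the call ended without WT SP replicate 1 (adjusted p = 0.0733, limma), 3 (0.0883) or 4 (0.0784) and without the filter on low values (0.0603). Zbtb7b was the least abundant of the 9 genes, at the 11.6 percentile of mean FPKM among the genes tested. A pseudocount of 1 understates the change of such a gene. Its means of 0.398 FPKM in WT SP and 0.183 in KO SP were under the filter of 0.5, so it entered the tested genes through KO DP alone.

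Runx3, the CD8 lineage factor, was measured in the same libraries. Its FPKM was 23.5, 31.2, 15.6 and 10.9 in KO DP and 33.4, 48.7, 23.2 and 20.9 in WT SP, with 23.6 and 22.0 in KO SP. The groups overlapped, and the KO DP to WT SP difference passed neither as deposited (-0.63 ± 0.36, adjusted p = 0.263, limma) nor scaled (-0.21 ± 0.24, adjusted p = 0.575, limma). The scaled values of 20.1 to 26.5 in KO DP lay inside the WT SP range of 18.8 to 43.3. Within the title ranges the scaled difference was -0.64 ± 0.24 in 34 to 37 and 0.21 ± 0.13 in 738 to 741, and neither passed (adjusted p = 0.310 and 0.284, limma).

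Set against Runx3 in the same library, Zbtb7b stood at 0.185, 0.179, 0.113 and 0.106 in KO DP, at 0.00877 and 0.00726 in KO SP, and at 0.00912, 0.0175, 0.00922 and 0.0105 in WT SP. The lowest KO DP ratio was thus above the highest SP ratio, and the KO DP mean was 12.6 times the WT SP mean. In absolute terms Zbtb7b RNA remained well under Runx3 RNA in each KO DP library. Of the other tested genes, 13.1% had a ratio to Runx3 that was higher in KO DP without overlap.

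Runx1, a relative of Runx3 that works in earlier T cell stages and also binds the Cd4 silencer, stood higher relative to Runx3 in KO DP. Its FPKM was 8.36, 10.2, 5.77 and 2.66 in KO DP and 4.65, 4.40, 2.999 and 3.32 in WT SP, with 4.68 and 3.48 in KO SP. As deposited the groups overlapped through KO DP replicate 4 (0.57 ± 0.34, adjusted p = 0.277, limma). Scaled, KO DP (5.84 to 8.67) lay above WT SP (2.598 to 4.31), a rise of 0.92 ± 0.18 (adjusted p = 0.00785, limma). The FPKM ratio of Runx1 to Runx3 was 0.356, 0.327, 0.369 and 0.244 in KO DP and 0.139, 0.0903, 0.129 and 0.159 in WT SP, with 0.198 and 0.158 in KO SP. Each KO DP ratio was above each SP ratio, and the same share of tested genes, 13.1%, had such higher ratios.

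**Figure D2:**
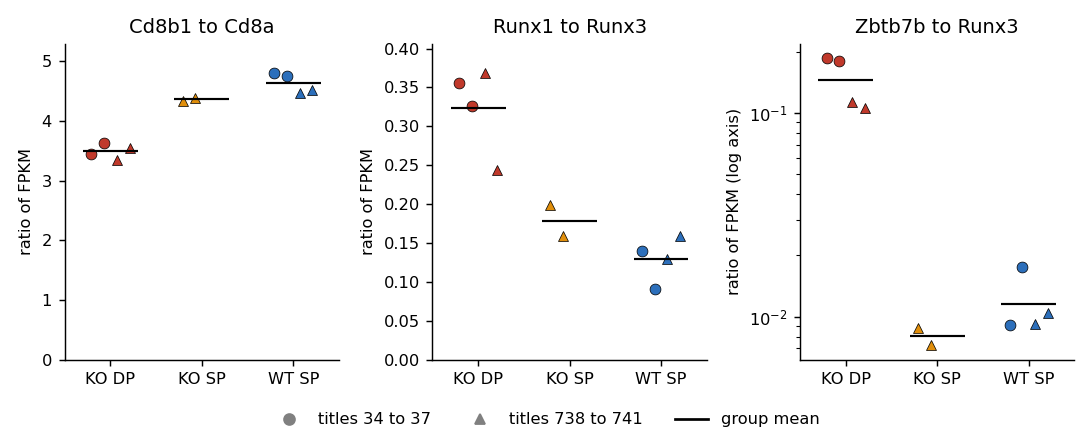
Ratio of deposited FPKM between 2 genes in the same library, by group (points, libraries; lines, group means); the panel of Zbtb7b to Runx3 has a log axis. KO DP lies below the SP groups for Cd8b1 to Cd8a (3.35 to 3.63 against 4.34 to 4.81) and above them for Runx1 to Runx3 and Zbtb7b to Runx3.

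Cbfb, the subunit that stabilises Runx proteins on DNA, was at 62.5, 70.2, 51.9 and 23.6 FPKM in KO DP and 42.3, 55.5, 36.7 and 47.4 in WT SP, with 45.5 and 44.1 in KO SP. KO DP held both the highest values and the lowest one. The difference from WT SP was 0.10 ± 0.34 as deposited (adjusted p = 0.846, limma), and 0.53 ± 0.15 scaled, which passed (adjusted p = 0.0370, limma) but did not with the replicate block added (adjusted p = 0.0611, limma). Patz1, a zinc finger factor also known as MAZR that restrains Cd8 and Zbtb7b, was at 10.8, 10.4, 4.67 and 3.06 FPKM in KO DP and 18.0, 14.7, 12.5 and 11.3 in WT SP, with 8.86 and 10.9 in KO SP. Both G9a-deficient groups lay below WT SP without overlap. Patz1 in KO DP missed the threshold against WT SP as deposited (-1.001 ± 0.36, adjusted p = 0.104, limma). It passed with the replicate block (adjusted p = 0.0442, limma), a pairing that the labels do not state. After scaling, with no block, it was lower (-0.63 ± 0.19, adjusted p = 0.0453, limma).

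Gata3, the factor that acts before ThPOK in helper commitment, was nearly level in the SP groups and spread in KO DP. Its FPKM was 40.0, 37.2, 19.2 and 10.9 in KO DP and 22.0, 25.1, 22.9 and 21.9 in WT SP, with 23.2 and 21.7 in KO SP. KO DP replicates 1 and 2 were above and 3 and 4 below the SP libraries, giving 0.05 ± 0.37 over WT SP as deposited (adjusted p = 0.932, limma). Scaled, KO DP (24.0 to 34.3) lay above WT SP (19.7 to 22.3), with a rise of 0.47 ± 0.12 (adjusted p = 0.0298, limma). Leaving out KO DP replicates 3 and 4, a choice made after seeing the data, gave a rise of 0.73 ± 0.10 with no scaling (adjusted p = 0.00942, limma).

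Over the 8 genes other than Cd4, KO DP against WT SP gave 1 call as deposited (Zbtb7b, higher), where 7.89% of all tested genes were called. Zbtb7b entered the tested genes through KO DP alone, and without the filter on low values 0 of the 8 were called. The groups did not overlap for 3 of the 8, with Zbtb7b higher, as were 3.4% of all genes, and Cd8b1 and Patz1 lower, as were 13.1%. Scaled, they did not overlap for the 4 higher and 2 lower genes named next, against 10.2% and 9.04% of all genes. Scaled, the comparison gave 6 calls, with Zbtb7b, Runx1, Cbfb and Gata3 higher and Cd8b1 and Patz1 lower, against 17.6% of all genes. The replicate block without scaling gave 3 (Zbtb7b higher, Cd8b1 and Patz1 lower), against 1435 of the 11162 tested genes, 899 of them lower. KO DP replicates 1 and 2 alone gave 3 (Zbtb7b 2.11 ± 0.20, Runx1 1.09 ± 0.21 and Gata3 0.73 ± 0.10, higher), against 7.47% of all genes. The median of the 8 differences was -0.29 as deposited and 0.13 scaled, beside -0.38 and -0.01 over all genes. Cbfb and Gata3 were near 0 as deposited and further above 0 after scaling. Each of the 8 genes kept its sign between the deposited and the scaled values.

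The direction of each gene was also read within the ranges of title numbers. As deposited, the differences in titles 34 to 37 and 738 to 741 were 1.93 and 1.00 for Zbtb7b, -0.64 and -2.02 for Cd8b1, 0.89 and 0.26 for Runx1, 0.44 and -0.24 for Cbfb, -0.58 and -1.43 for Patz1, 0.69 and -0.59 for Gata3, and -0.20 and -1.63 for Cd8a. Cbfb and Gata3 thus took opposite signs in the 2 ranges. Scaled, the same pairs were 1.80 and 1.55 for Zbtb7b, -0.73 and -1.05 for Cd8b1, 0.80 and 1.05 for Runx1, 0.36 and 0.71 for Cbfb, -0.65 and -0.60 for Patz1, 0.61 and 0.33 for Gata3, and -0.29 and -0.66 for Cd8a, each pair with 1 sign. Runx3 was at -0.56 and -0.71 as deposited and took opposite signs scaled, at -0.64 and 0.21. The difference between the ranges itself passed for 0 of the 8 genes by limma, with 5 at an unadjusted p under 0.05 as deposited and 1 (Runx3) scaled. Among all genes it passed for 0.466% and 0.323%.

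**Figure D3:**
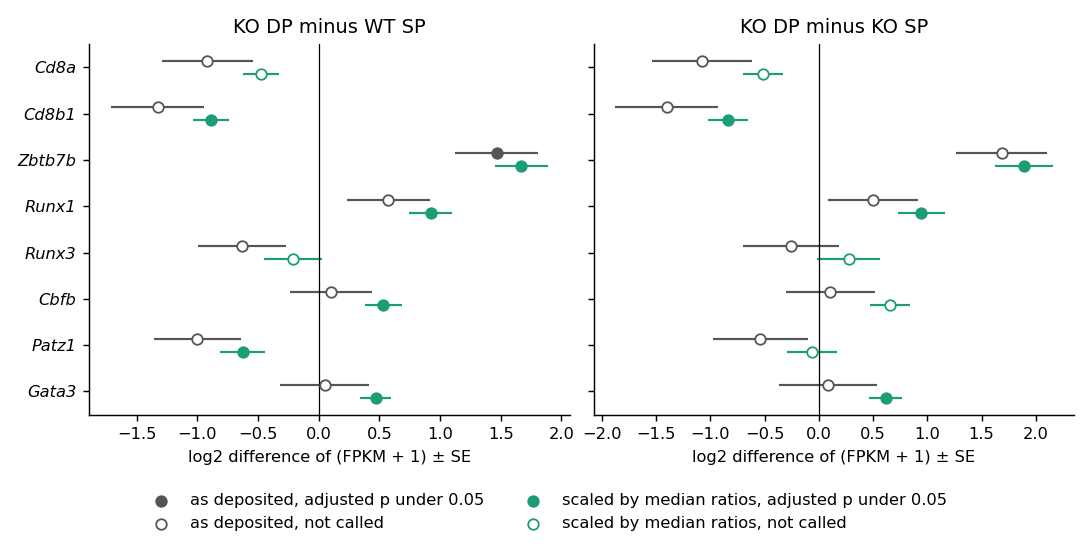
Log2 differences (± SE, limma on log2(FPKM + 1)) of the 8 genes other than Cd4, as deposited (grey) and scaled by median ratios (green), with filled points for an adjusted p under 0.05. Against WT SP, Zbtb7b is called in both, and 5 further genes are called after scaling; against KO SP no gene is called as deposited and 4 are called after scaling.

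The double-positive cells were also set against KO SP, which shares the G9a-deficient genotype. This comparison uses the same KO DP libraries as the one with WT SP, so the values are set side by side and are not independent. As deposited, 0 of 8 genes passed by limma, with 3 at an unadjusted p under 0.05 (Cd8a, Cd8b1 and Zbtb7b), where 2.07% of all genes were called. KO DP and KO SP did not overlap for Zbtb7b, which was higher, as were 4.44% of all genes, and for Cd8a and Cd8b1, which were lower, as were 35.5%. The differences were 1.69 ± 0.42 for Zbtb7b (adjusted p = 0.0621, limma), -1.40 ± 0.47 for Cd8b1 (0.126), -1.08 ± 0.46 for Cd8a (0.189) and -0.54 ± 0.44 for Patz1 (0.440). Scaled, 4 of 8 passed, against 5.5% of all genes. Zbtb7b was higher by 1.89 ± 0.27 (adjusted p = 0.00518, limma), Runx1 by 0.94 ± 0.22 (0.0373) and Gata3 by 0.62 ± 0.15 (0.0488), and Cd8b1 was lower at -0.84 ± 0.18 (0.0313).

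For Patz1 the scaled difference of KO DP was -0.63 ± 0.19 from WT SP and -0.06 ± 0.23 from KO SP, and the KO SP values of 8.86 and 10.9 FPKM lay near KO DP replicates 1 and 2 (10.8 and 10.4) and above replicates 3 and 4 (4.67 and 3.06). Replicates 3 and 4 have the low totals and share the title range of KO SP. Within that range Patz1 was at -1.18 ± 0.37 from KO SP as deposited (adjusted p = 0.0610, limma), where 1798 of the 11162 tested genes were called. Pairing by titles 738 and 739 gave a call (adjusted p = 0.0393, limma), as it did for 4587 of the tested genes, 4092 of them lower. Between the SP groups Patz1 differed by -0.46 ± 0.44 as deposited (adjusted p = 0.938, limma) and -0.56 ± 0.23 scaled (adjusted p = 0.368, limma).

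The SP groups differ in genotype and share the CD4-negative phenotype. Between KO SP and WT SP, 0 of the 9 passed by limma as deposited or scaled, with 0 and 1 (Patz1) at an unadjusted p under 0.05, where 0.116% and 0.188% of all genes were called. The 9 include Cd4, which is low in both groups by their definition. The differences ran from -0.46 (Patz1) to 0.16 (Cd8a), with SEs of 0.41 to 0.47 from a spread shared by the 3 groups, KO DP included, and of 0.15 to 0.29 scaled. Zbtb7b and Patz1 were lower in KO SP with no overlap, as were 11.1% of all genes. KO SP occurred in title range 738 to 741 alone, where Zbtb7b differed from WT SP by -0.04 ± 0.05 and Patz1 by -0.25 ± 0.17.

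Other genes of the same pathways were counted from lists written with earlier results of these data known, so the lists are no independent evidence of a direction. Of 32 further regulators of coreceptor and lineage genes, 0 were higher and 3 lower in KO DP than in WT SP as deposited (median -0.55), and scaled 1 was higher and 6 lower (median -0.17). Over all genes 7.89% were called as deposited and 17.6% scaled, with medians of -0.38 and -0.01, and the lists below are read against the same values. The 3 lower in both were Satb1, a chromatin organiser that acts on the Cd4, Cd8 and Zbtb7b loci, and the partner factors Tcf7 and Lef1. Satb1 went from 54.6 to 115 FPKM in WT SP to 9.88 to 20.1 in KO DP (-2.51 ± 0.32, adjusted p = 0.000808, limma), and it was lower than in KO SP too (-2.48 ± 0.39, adjusted p = 0.00803, limma). Tcf7 differed from WT SP by -1.46 ± 0.40 (adjusted p = 0.0474, limma) and Lef1 by -1.31 ± 0.37 (adjusted p = 0.04999, limma). Without KO DP replicates 3 and 4, Satb1 was called and Tcf7 and Lef1 were not.

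Partners of the coreceptors at the T cell receptor were counted in the same way. Of 15 such genes 0 passed by limma as deposited (median -0.38), and scaled 3 were higher and 2 lower (median 0.07). Lck, the kinase carried by CD4 and CD8, was at 785, 775, 588 and 360.0 FPKM in KO DP and 746 to 1187 in WT SP, and its scaled difference was -0.18 ± 0.17 (adjusted p = 0.503, limma). The scaled rises were in Cd247, the zeta signalling chain (0.51 ± 0.11), Cd5, an inhibitor of receptor signalling (0.73 ± 0.13), and Cd28, a costimulator (0.50 ± 0.13). The scaled falls were in Cd3d, a CD3 chain (-0.45 ± 0.13), and Ptprc, the phosphatase CD45 (-0.41 ± 0.11).

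Of 16 CD8 lineage genes, 1 was higher and 3 lower as deposited (median -0.80), the integrin chain Itgae higher and the granule protease Gzmm, the receptor chain Klrd1 and the cathepsin Ctsw lower. Scaled, 1 was higher and 4 lower (median -0.35), and without KO DP replicates 3 and 4 Ctsw was not called. Of 15 tested helper lineage genes 14 were higher as deposited (median 2.69) and 15 scaled (median 3.03), among them Cd40lg, the helper ligand for B cells (4.08 ± 0.30), and Maf (1.80 ± 0.32). Maf had means of 0.129 FPKM in WT SP and 0.0874 in KO SP, so it too passed the filter through KO DP alone.

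Markers of other cells that could hold CD4 with CD8 were read beside Cd4. Of 14 immature thymocyte markers 6 passed the filter and 0 of them differed between KO DP and WT SP by limma as deposited (scaled, Mns1 was higher and Tcf12 lower). The defining genes were near 0: the recombinase genes Rag1 and Rag2 reached at most 0.346 and 0.259 FPKM in KO DP, and the pre-T cell receptor chain Ptcra at most 0.163. Each was highest in KO DP replicates 3 and 4. Of 9 tested dendritic cell markers 0 were called as deposited (scaled, Xcr1, Zbtb46 and Cd74 were higher), with the list summing to 258 to 902 FPKM in KO DP, 361 and 424 in KO SP and 271 to 591 in WT SP. Of 9 tested macrophage and monocyte markers 0 were called either way, with sums of 46.3 to 241, 68.6 and 119, and 42.7 to 181. The part of these cells in the Cd4 values was not tested. Against WT SP as deposited, the B cell, NK cell and erythroid lists gave 0 calls. The gamma-delta T cell list gave 1, Cd163l1, higher in KO DP and also in KO SP. Erythroid markers summed to 671 and 1214 in KO DP replicates 1 and 2 and to 468 and 1007 in WT SP replicates 1 and 2. They reached at most 57.4 in the other libraries, so the title ranges differed in these markers. The T cell markers summed to 4293, 4260.0, 2313 and 1394 in KO DP, 4671 and 4153 in KO SP, and 3187 to 4062 in WT SP, and 0 of the 9 were called as deposited (scaled, Cd247, Cd5 and Cd6 were higher and Cd3d lower).

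By correlation of log2(FPKM + 1) over the 10 libraries, given as a description, the genes most like Cd4 were St6galnac6 (r = 0.997), Tnfsf11 (0.993), Scin (0.992), Slc7a10 (0.986) and Il1r2 (0.985). St6galnac6 was listed at 0 in each SP library and at 3.62 to 6.81 FPKM in KO DP. Those most like Zbtb7b were St3gal2 (0.989), Maf, Ptpn5, Pdzk1ip1 and Tff1 (0.980), and Maf ranged from 1.36 to 5.82 FPKM in KO DP and was at most 0.260 in WT SP. Cd8b1 was followed most closely by Pgs1 (0.996), Slfn1, Oxct1, Ddx10 and Hvcn1 (0.991), each lower in KO DP than in WT SP without overlap. Runx3 was followed by Phf15 (0.972), B4galt5, Supt3h, Chchd10 and Wasf2 (0.965). The libraries share scale, which moves genes together: KO DP replicate 4, with the lowest total, was the lowest KO DP library at each of the 9 genes.

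H3K9me3 peaks were assigned to most of these genes, and most peaks lay over 5 kb from a start site, as in the lists as a whole. The 4 lists held 85960 (WT 1), 23304 (WT 2), 111149 (KO 1) and 154997 (KO 2) peaks, of which 33, 29, 24 and 24 were assigned to the 9 genes. Of these 2, 2, 2 and 1 lay within 5 kb of a start, beside 5.84%, 8.71%, 3.76% and 3.61% of all peaks. Peaks occurred at 7 of the 9 genes in each list, and Zbtb7b and Cbfb had 0 in all 4. Of the tested genes, 47.8%, 33.6%, 42.5% and 45.5% had a peak in the respective lists. Merged where they overlapped, the peaks formed 40 regions, 17 of them in each of the 4 lists and 13 in a single list. None was annotated as a promoter, and 1 region was in both WT lists and neither KO list, against 0 in both KO lists and neither WT list. Such patterns were not counted over all regions of the lists, so nothing about genotype is read from them.

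At Cd4, 1 region was shared by the 4 lists. It covers 867 bp at chr6:124838898-124839765 (mm9, intergenic), over an LTR of the MaLR family (ORR1C2), with its peak centres about 1.19 kb upstream of the start site. Its score stood between the 20.3 and the 91.9 percentile of its list. The first intron of Cd4 is known for a silencer, and intron peaks here differed by list: one centred 8.18 kb into the gene was in WT 1 and KO 2, and one at 2.32 kb was in WT 2 alone. KO 1 listed no intron peak at Cd4.

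The neighbouring Cd8b1 and Cd8a genes carried stronger peaks. A region 5.13 kb upstream of the Cd8a start (chr6:71316832-71319642, mm9, 2810 bp, over an L1 LINE) ranked at the 98.5 percentile or higher in each list. Another, 25.0 kb downstream of the Cd8b1 start, ranked at the 95.4 percentile or higher in WT 1, WT 2 and KO 1 and was not listed in KO 2. One more, 33.2 kb downstream of the Cd8a start in an intron of the annotation, was in the 4 lists at the 65.5 to 89.0 percentile.

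Runx3 held 3 of the 5 regions that were in the top 5% by score of each list. They were centred 67.3 kb and 8.30 kb upstream and 74.9 kb downstream of its start site, and the one at 8.30 kb (chr4:134666982-134669366, mm9, over a HAL1 LINE in part) ranked at the 99.3 percentile or higher in each list. Patz1 had a single peak per list, 7.21 kb upstream over an ERVK LTR (chr11:3180076-3183986, mm9), at the 98.0 percentile or higher. That region and the one upstream of Cd8a complete the 5.

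Runx1 and Gata3 had the most peaks. Runx1 had 9 and 10 in the WT lists and 7 and 7 in the KO lists, and Gata3 had 9 and 7 against 6 and 5. At these 2 of the 7 genes with peaks, both KO lists held fewer than both WT lists, although the KO lists were longer as a whole. Of the tested genes with any peak, 5.18% were lower in this way and 14.8% higher. Genes with a peak held a median of 2 in WT 1, 1 in WT 2, 2 in KO 1 and 2 in KO 2. Runx1 and Gata3 held more, so these shares are no like-for-like background for them. The 1 region in both WT lists and neither KO list lay in a Runx1 intron, 57.2 kb from the nearest start, with scores at the 38.1 and 79.9 percentile. How often this occurs over all regions was not counted. At Gata3 the peaks were remote: the nearest region was centred 38.9 kb from the start site and the rest 80.7 kb to 338 kb away. An exact permutation test of 2 lists against 2 cannot reach a p under 0.05 and none was run, and scores were compared within a list only, as their scaling is not given.

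**Figure D4:**
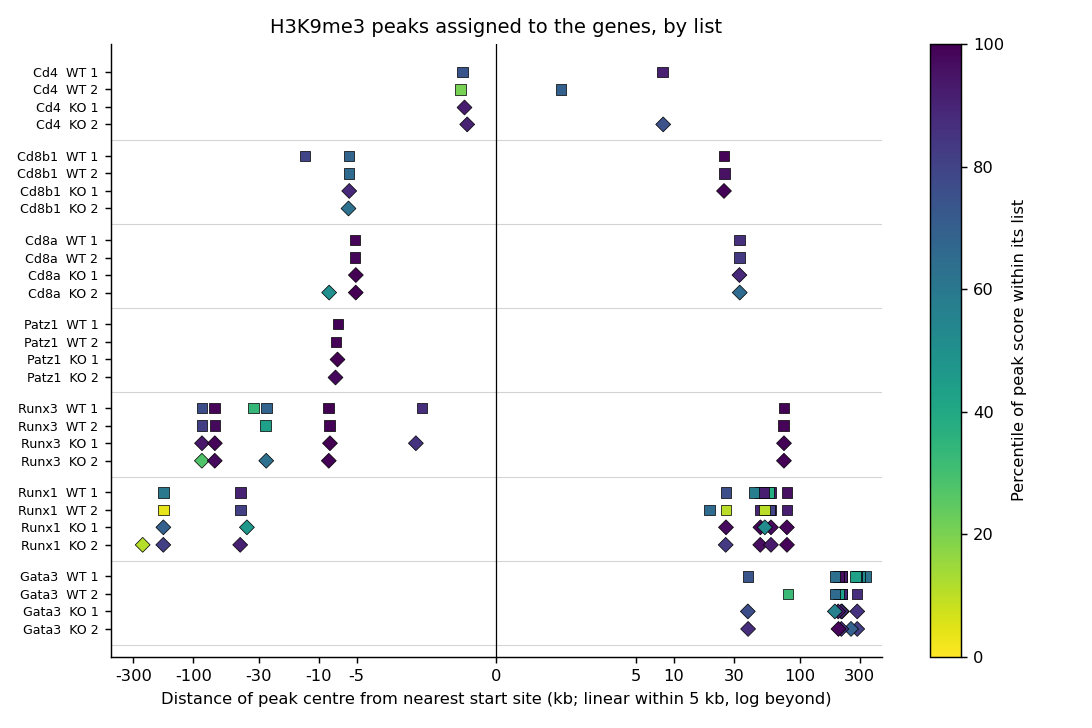
Distance of each H3K9me3 peak centre from the nearest annotated start site (kb, linear within 5 kb and log beyond; negative is upstream) at the 7 genes with peaks, 1 line per list (squares, WT; diamonds, KO), coloured by the percentile of the deposited score in its own list. The dark marks upstream of Cd8a, Patz1 and Runx3 recur in each of the 4 lists, and marks within 5 kb of a start occur at Cd4 and Runx3.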

How the data were processed

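RNA values are FPKM as the authors deposited them; the submitters' processing notes name TopHat, Cufflinks, Bowtie, HOMER and the mm9 build. They come from SMART-Seq v4 and Nextera libraries (per the labels' protocols), which do not mark strand. The score of each H3K9me3 peak is the authors' deposited value and was ranked within its list only, since nothing used here states how it was scaled or called, or any tool version. The RNA table also holds 16 columns of averages and comparisons, which were not used. Lines sharing a symbol were added up.

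Genes averaging 0.5 FPKM or more were tested with limma 3.58.1 in R 4.3.3 (log2(FPKM + 1), mean-variance trend, 3 groups sharing 1 spread, 7 residual degrees of freedom), with Benjamini-Hochberg adjustment and a threshold of 0.05. FPKM holds no counts, so no counting intervals are given. The fit was first tested on simulated data. Scaling used median ratios to the geometric mean of the tested genes. KO DP and WT SP share replicate numbers in the submitters' descriptions, and the deviations of same-numbered samples correlated at 0.119, 0.293, 0.111 and 0.103, each above 0.1, so the numbers were taken to pair them. Same-numbered samples also share a title range, and KO DP replicates 3 and 4 each correlated better with the other's partner (0.201 and 0.243). WT SP replicate 1 correlated better with KO DP replicate 2 (0.147) than with its own partner. The correlations therefore cannot tell the replicate number from the title range.

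The named genes are the 9 members, Ehmt2, up to 4 genes per list by smallest p, markers listed at or near 0, the 5 most correlated genes and the neighbours; Lck, Cd247, Cd5, Cd28, Cd40lg, Maf, Tox, Rag1, Rag2, Ptcra and list genes named by their call fall partly outside this rule, chosen with their values in view. The members and lists were chosen with earlier results of these data known. The input libraries were not used. Overlapping peaks were merged into a region. Alternatives were another pseudocount, other filters, scaling, the block, the title range and leaving out libraries.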

Additional observations from a re-analysis of the deposited data

Results flagged for a closer look

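In WT SP, Zbtb7b of replicate 2 (0.853 FPKM) stood apart from the other 3 libraries (0.214 to 0.304): its gap to the nearest library was 0.858 of the range of the group, above Dixon's 95% critical value for 4 samples. The ratio of Zbtb7b to Runx3 in the same library (0.0175, against 0.00912 to 0.0105) stood apart in the same way, with a gap of 0.838 of the range. Among the 32 groups examined this way, chance alone gives such a gap in about 1 in 20. The same library was highest in Lag3, the inhibitory receptor gene beside Cd4 (27.9 FPKM, against 0.162 to 0.309), and in Tox, a factor of CD4 lineage development (149, against 10.7 to 14.4). Without it the rise of Zbtb7b in KO DP was called as well.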

How the results depend on the processing

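Calls among the 8 genes other than Cd4 depended on scale. Against WT SP 1 gene was called. A pseudocount of 0.1 gave 2, no filter on low values 0, scaling 6, the replicate block 3 and the title range as a term 3. Leaving out 1 library gave 0 to 2 (0 without WT SP replicate 1, 3 or 4). Added after seeing the data, leaving out KO DP replicates 3 and 4 gave 3, scaling with the title range 7 and scaling with the replicate block 5 (Cbfb lost). Over all tested genes the calls were 881, or 1964 scaled, 1435 with the block, 2123 with the title range and 308 to 1211 without 1 library.

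Against KO SP 0 were called. A pseudocount of 0.1, the replicate block and the title range each gave 1 (Zbtb7b), scaling 4, and leaving out 1 KO DP or WT SP library 0 to 1. Pairing by titles 738 and 739 gave 4, where 4587 of the 11162 tested genes were called. That pairing rests on 2 pairs whose differences correlated at 0.165, and the labels do not say what the numbers mark. The added settings gave 2 without KO DP replicates 3 and 4, 3 scaled with the title range and 4 scaled with the replicate block. Between KO SP and WT SP the added scaled block gave 1 (Patz1), where the other settings with both KO SP libraries gave 0. With the scaled block 1433 of the 11162 tested genes were called, against 21 scaled without it. Each replicate block sets KO SP replicates 1 and 2 beside KO DP and WT SP replicates 1 and 2, which are in the other title range. Whether these numbers pair KO SP with the other groups was not checked.

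Signs turned for the differences below, and none passed in the setting that turned it. Against WT SP, leaving out KO DP replicate 1 or 2 turned Cbfb (-0.0227 and -0.0774, range -0.0774 to 0.43 over libraries) and Gata3 (-0.19 and -0.16, range -0.19 to 0.40). Against KO SP, Runx3 turned with scaling (0.28), the replicate block (0.20), without KO DP replicates 3 and 4 (0.24), and scaled with the title range (0.0491) or the block (0.50). The pairing by title turned Runx1 (-0.0197), Cbfb (-0.34) and Gata3 (-0.59), the title range turned Cbfb (-0.17) and Gata3 (-0.27), and leaving out KO DP replicate 1 or 2 turned Cbfb (-0.0178 and -0.0725, range -0.0725 to 0.44) and Gata3 (-0.16 and -0.13, range -0.16 to 0.43). Patz1 turned without KO DP replicates 3 and 4 (0.0951) and with the scaled block (0.15).

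Between KO SP and WT SP the title range turned Cd4 (0.27), Zbtb7b (0.19), Runx3 (0.0837), Cbfb (0.27) and Gata3 (0.32). The replicate block turned Cd8a (-0.0313), Cd8b1 (-0.15) and Runx1 (-0.29), and scaling turned Cd8b1 (-0.0461) and Runx1 (-0.0227). The scaled title range turned Cd4 (0.00276), Cd8a (-0.0118), Cd8b1 (-0.0669) and Zbtb7b (0.0120), and the scaled block Cd8b1 (-0.0252) and Runx1 (-0.18). Leaving out 1 library gave -0.0972 to 0.25 for Runx1, -0.10 to 0.0946 for Cbfb and -0.0776 to 0.0129 for Gata3. The causes were not tested.

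Of the regions with H3K9me3 at these genes, 17 were in each list. The count was 12 at scores of at least the median, 8 within 50 kb of a start and 17 to 21 without 1 list. Only 10 RNA libraries, 2 of them KO SP, limit the precision, and the depth behind FPKM is known only relatively.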

Other observations

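The genes beside the coreceptor and lineage factor genes on the chromosome were read in RefSeq gene order. The counts below are a description. Of all tested genes 7.89% were called in KO DP against WT SP as deposited and 17.6% scaled. Of the 10 nearest neighbours of Cd4, 6 were tested and 0 passed in KO DP against WT SP by limma as deposited. Lag3, the adjoining gene, had a mean of 7.16 ± 13.8 FPKM (SD, n = 4) in WT SP and 6.86 ± 6.70 in KO DP (n = 4). In WT SP, replicate 2 supplied most of it. After scaling the cell cycle gene Cdca3 (2.10 ± 0.56) and Mlf2 (0.50 ± 0.15) were higher and Cops7a (-0.54 ± 0.11) lower. Beside the Cd8b1 and Cd8a pair 0 of 6 tested neighbours passed either way, and beside Runx3 0 of 8. Beside Zbtb7b, Adam15, which encodes a membrane metalloproteinase, was higher in KO DP, at 6.52, 5.13, 2.68 and 2.12 FPKM against 0.634 to 1.32 in WT SP (1.34 ± 0.30, adjusted p = 0.0209, limma), and after scaling Cks1b, which acts in the cell cycle, and Shc1, a signalling adaptor, were higher too.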
